A study of Mus musculus with 4 samples.

Results

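The unfolded protein response genes described here are 10 mouse genes, Hspa5, Herpud1, Ddit3, Xbp1, Atf4, Dnajb9, Sdf2l1, Creld2, Trib3 and Pdia4. They were chosen by symbol from a table of 48709 genes, and each symbol matched 1 row. All 10 reached the minimum for the test, a mean of 10 across the 4 libraries, as did 18436 genes of the table. RNA was taken from left lung lobes of C57BL/6 pups at postnatal day 1. The mutant pups were 2 RykSL/SL mice, homozygous for the SL allele of Ryk, and the controls were 2 wild-type mice; each library is 1 mouse, and the labels give neither sex nor litter. The product of Ryk is a receptor for WNT ligands. The mice had received no treatment. The sources used here name no tissue-specific driver and no effect of the allele on the RYK protein. The values are whole-lobe normalized read counts, in which fewer cells of a type and less RNA per cell cannot be told apart.

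The unfolded protein response is the reaction of a cell to misfolded protein in the endoplasmic reticulum (ER). Sensors in the ER membrane drive its branches: IRE1 splices the mRNA of Xbp1 into the form that encodes an active transcription factor, ATF6 is cut to release a transcription factor, and PERK phosphorylates eIF2alpha, which slows translation in general but favours that of Atf4. ATF6 and spliced XBP1 act on genes for ER chaperones and for the disposal of misfolded protein, and ATF4 acts on Ddit3, Trib3 and genes of amino acid supply. In the newborn lung the surfactant-secreting alveolar type 2 cells, the airway secretory cells and the matrix-secreting fibroblasts place a high load on the ER.

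The normalized values of a library summed to between 18658239 and 19987634. Ryk itself had 2757 and 2203 normalized read counts in the RykSL/SL lungs, against 2528 and 2525 in the wild-type lungs (limma, log2 fold change -0.04, adjusted p = 0.926). RykSL/SL lung 1 had 24836 counts of Xist, the RNA of the inactive X chromosome, where the other lungs had 7 to 23, and 56 counts of the Y-linked Ddx3y, where the others had 2197 to 3769, so sex and lung 1 cannot be told apart. Over tested genes the log2 difference between lungs had an SD of 0.60 for the RykSL/SL pair and of 0.314 for the wild-type pair. All 13 lung identity markers, among them Sftpc, Scgb1a1, Ager and Pecam1, were above the minimum in these lungs.

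The start regions of Herpud1 and Trib3 are shown because they hold letters known from targets of ATF4, in genes the results turn on. Each runs 5′ to 3′ on the strand of the gene, from 250 bases before to 50 bases after the RefSeq start (GRCm38.p6), and capitals mark the matches. Herpud1 lies at chr8:94386179-94386478 on the plus strand and Trib3 at chr2:152344011-152344310 on the minus strand.
Herpud1: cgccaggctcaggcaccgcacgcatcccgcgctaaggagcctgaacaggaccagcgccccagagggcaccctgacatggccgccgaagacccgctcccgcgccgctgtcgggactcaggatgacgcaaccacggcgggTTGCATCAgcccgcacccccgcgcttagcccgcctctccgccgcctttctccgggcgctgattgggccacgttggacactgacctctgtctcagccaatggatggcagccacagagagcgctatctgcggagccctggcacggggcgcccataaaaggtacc
Trib3: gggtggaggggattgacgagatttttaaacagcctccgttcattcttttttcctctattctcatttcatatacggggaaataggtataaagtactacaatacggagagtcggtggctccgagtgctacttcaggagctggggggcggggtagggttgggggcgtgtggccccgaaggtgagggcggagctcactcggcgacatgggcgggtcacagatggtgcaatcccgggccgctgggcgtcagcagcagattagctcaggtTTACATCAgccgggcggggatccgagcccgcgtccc

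Both strands were searched for the C/EBP-ATF element known from ATF4 targets (CARE, TTNCATCA) and for the core of the XBP1 element (TGACGTGG). All 10 genes had a start region among the 32851 of the RefSeq table. Herpud1 held CARE at positions -112 to -105 from the start. Trib3 held it at 14 to 21, after the start, and 3.97% of all regions hold that element. Ddit3 held no match in this region of 300 bases. Sequence further upstream was not searched, so an element there cannot be judged. Of 338 tested genes with CARE, 7 were called higher and 7 lower in RykSL/SL (limma), beside 1.47% and 0.917% of all tested genes. The log2 fold change was below 0 in 169 of the 338. The XBP1 core, found in 0.676% of all regions, was in none of the 10. Other elements through which ATF6 and XBP1 act were not part of the search. The lack of this core therefore does not show that the regions lack such elements. A match is a description of letters, not of a bound factor.

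The comparison of RykSL/SL with wild-type lungs asked how the response genes differ between the genotypes in the newborn lung. They did not all move in 1 direction. Herpud1 was 2.95-fold higher and passed the test, Pdia4 and Sdf2l1 stood at 0.522 of the wild-type level without passing, and Trib3, Ddit3, Dnajb9 and Atf4 were high in RykSL/SL lung 2 alone. In all, 1 of the 10 genes was called higher, where 1.47% of all tested genes were, and 0 were called lower, where 0.917% were (limma on log2(value + 1), Benjamini-Hochberg adjusted p under 0.05 over all 18436 genes). At an unadjusted p under 0.05, 1 gene was higher and 2 were lower, where 10.4% of all tested genes were higher and 9.64% were lower; these shares are the background for the unadjusted counts of the lists as well. Both RykSL/SL lungs lay above both wild-type lungs in 3 of the 10 genes and below them in 4, against 25.7% and 26.9% of all tested genes, so these counts are close to the background. Their median log2 fold change was 0.16, beside -0.02 over all tested genes, and fitted values spread over -0.94 to 1.56, 5 above and 5 below 0. Without RykSL/SL lung 1 the log2 fold changes were 1.55 for Herpud1, 0.73 for Atf4, 1.42 for Ddit3, 1.17 for Dnajb9 and 2.61 for Trib3. Without RykSL/SL lung 2 they were 1.57, 0.01, -0.03, 0.16 and 0.31. Each of these fits rests on 1 RykSL/SL lung.

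**Figure D1:**
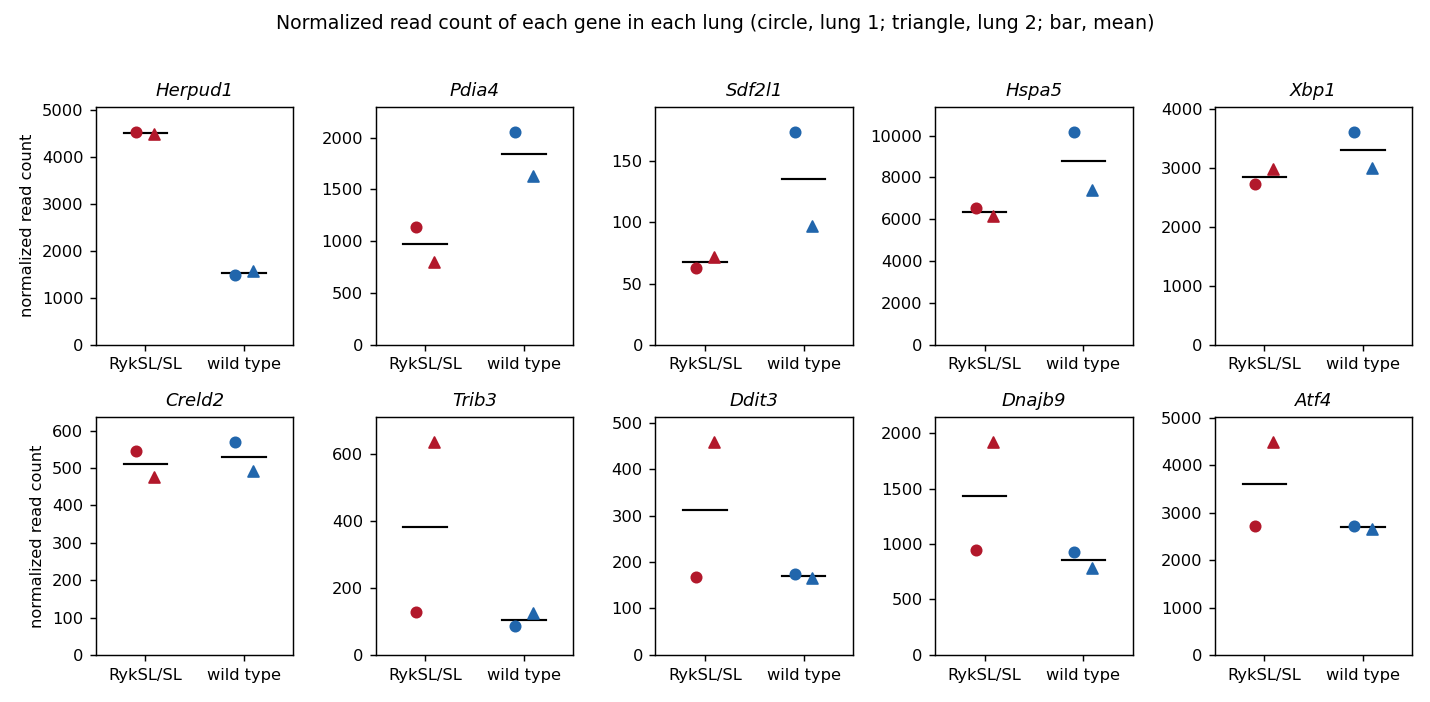
Normalized read count (vertical axis, from 0) of each of the 10 genes in each RykSL/SL lung (red, left) and wild-type lung (blue, right), with the mean as a bar; n = 2 lungs per genotype. Herpud1 stands at 4540 and 4500 in the RykSL/SL lungs against 1492 and 1574 in the wild-type lungs, while Trib3, Ddit3, Dnajb9 and Atf4 are high in RykSL/SL lung 2 only.

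Herpud1 (ENSMUSG00000031770, chr8:94386438-94395377, plus strand, GRCm38) encodes an ER membrane protein with a ubiquitin-like domain that helps assemble the machinery of ER-associated degradation. It had 4540 and 4500 normalized read counts in the RykSL/SL lungs, against 1492 and 1574 in the wild-type lungs. The groups did not overlap, and within each genotype the lungs were close. The means were 4520 ± 28.3 and 1533 ± 58.0 (SD, n = 2 each), and the log2 fold change was 1.56 (standard error 0.132), with a 95% interval of 1.24 to 1.88 and an adjusted p of 0.0107 (limma), which placed it at rank 35 of all tested genes by p. The difference from the wild-type mean was 1.57 in lung 1 and 1.55 in lung 2 on the log2 scale. The gap between the RykSL/SL lungs was larger than that of only 2.64% of tested genes. The size of the change stayed between 1.46 and 1.60 in 12 alternatives, but the call did not hold in 5 of them: adjusted p was 0.0937 without RykSL/SL lung 2, 0.785 and 0.716 without wild-type lung 1 or 2, 0.222 with no filter on low values and 0.0522 without the mean-variance trend.

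No other gene of ER-associated degradation passed the test, of 25 measured (limma; 1 higher and 0 lower at an unadjusted p under 0.05). Their fitted values ran from -0.30 to 0.40 with a median of 0.11. Herpud2, the paralogue of Herpud1, had 954 and 957 normalized read counts in RykSL/SL lungs, against 755 and 692 in wild-type lungs, a log2 fold change of 0.40 (adjusted p = 0.192). Nploc4, a cofactor of the extracting ATPase VCP, had a log2 fold change of 0.36 (adjusted p = 0.290), and the ubiquitin-conjugating enzyme gene Ube2j1 one of 0.28 (adjusted p = 0.324). Ubxn4, which recruits VCP to the ER, had 0.25 (adjusted p = 0.345). Both RykSL/SL lungs were above both wild-type lungs in 9 of the 25 and below in 1, beside 25.7% and 26.9% of all tested genes.

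The gene of the main ER chaperone, Hspa5 (BiP, chr2:34771970-34777547, plus strand), whose protein also holds the sensors in check, had 6555 and 6146 normalized read counts in RykSL/SL lungs, against 10167 and 7398 in wild-type lungs. The groups did not overlap, yet the wild-type lungs were 0.46 apart on the log2 scale, about as far as the genotypes. The log2 fold change was -0.45 with a 95% interval of -0.93 to 0.03, and it did not pass (limma, adjusted p = 0.273).

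Pdia4 (ERp72, chr6:47796141-47813430, minus strand), a disulfide isomerase of the ER lumen, had 1137 and 801 normalized read counts in RykSL/SL lungs, against 2054 and 1632 in wild-type lungs. All RykSL/SL values lay below all wild-type values. The means were 969 ± 237.6 and 1843 ± 298.4 (SD, n = 2 each), and the log2 fold change of -0.94 (95% interval -1.47 to -0.41) had an adjusted p of 0.0941 (limma). Sdf2l1 (chr16:17130138-17132383, minus strand), a component of BiP-containing chaperone complexes, had 63 and 72 counts in RykSL/SL lungs, against 174 and 97 in wild-type lungs. Its log2 fold change was also -0.94, with a standard error of 0.320 and an adjusted p of 0.191. The wild-type lungs were 0.84 apart on the log2 scale here, and without wild-type lung 1 the fold change was -0.52.

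Creld2 (chr15:88819646-88826681, plus strand), a secreted ER protein with EGF-like repeats that is known to be induced by ER stress, had 546 and 475 normalized read counts in RykSL/SL lungs, against 569 and 491 in wild-type lungs. The groups overlapped, and the 95% interval of the log2 fold change was -0.45 to 0.34. Alg12, which encodes a mannosyltransferase of the ER, starts 328 bases away on the opposite strand, and the start regions share 173 bases. Alg12 was named for this position. It had 215 and 203 counts in RykSL/SL lungs, against 216 and 186 in wild-type lungs (log2 fold change 0.06, 95% interval -0.38 to 0.50).

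Dnajb9 (ERdj4, chr12:44205897-44210068, minus strand), a co-chaperone of BiP and a known target of spliced XBP1 that restrains IRE1, had 950 and 1917 normalized read counts in RykSL/SL lungs, against 924 and 782 in wild-type lungs. Lung 2 was 2.02 times as high as lung 1, and lung 1 was only just above the wild type. The log2 fold change was 0.67 (standard error 0.326, adjusted p = 0.316), and it was 0.16 without lung 2. Of the 50-base sequences of Dnajb9 transcripts, 5.50% also occur in the processed pseudogene Gm6568, which had 72 and 166 counts in RykSL/SL lungs, against 80 and 55 in wild-type lungs.

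Wider lists of the folding machinery had medians below 0, with few calls. Of 27 measured ER chaperones and co-chaperones, 1 fell and none rose, and at an unadjusted p under 0.05 the counts were 7 lower and 1 higher (limma). Both RykSL/SL lungs lay below both wild-type lungs in 16 of the 27, beside 26.9% of all tested genes, and the list median was -0.33. Relative to the wild-type mean it was -0.17 in RykSL/SL lung 1 and -0.49 in lung 2. The wild-type lungs differed too, with a median of 0.15 for lung 1 minus lung 2. The gene that fell was Uggt2, a relative of the glucosyltransferase that checks glycoprotein folding, with 284 and 309 normalized read counts in RykSL/SL lungs, against 600 and 573 in wild-type lungs (log2 fold change -0.98, adjusted p = 0.0357). The lectin chaperone gene Calr had 4037 and 3553 in RykSL/SL lungs, against 7497 and 5854 in wild-type lungs, and did not pass (-0.81, adjusted p = 0.0865). Cnpy2, another ER-resident protein gene, had a log2 fold change of -0.64 (adjusted p = 0.107), and the prolyl isomerase gene Fkbp14 one of 0.96 (adjusted p = 0.0799). The call of Uggt2 was lost without RykSL/SL lung 2 (adjusted p = 0.0966) and without wild-type lung 1 or 2 (0.913 and 0.768).

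None of 18 disulfide isomerase and oxidase genes passed (limma; 3 lower and 1 higher at an unadjusted p under 0.05), with a median of -0.18. Relative to the wild-type mean the median was -0.03 in RykSL/SL lung 1 and -0.17 in lung 2, and wild-type lung 1 minus lung 2 had one of 0.17. The sulfhydryl oxidase gene Qsox1 had 2139 and 1892 normalized read counts in RykSL/SL lungs, against 1168 and 1286 in wild-type lungs (log2 fold change 0.71, adjusted p = 0.0704). The isomerase genes Pdia5 (-0.69) and Pdia6 (-0.59) and the thioredoxin-related Tmx2 (-0.83) had adjusted p of 0.102, 0.164 and 0.173. None of 30 translocation and secretory transport genes passed either (7 lower and 2 higher unadjusted), and 12 lay below the wild type in both RykSL/SL lungs, beside 26.9% of all tested genes. The median of this list relative to the wild-type mean was -0.07 in RykSL/SL lung 1 and -0.31 in lung 2. Among the 30 transport genes, Arfgap3, a regulator of Golgi-to-ER traffic, had 1101 and 1103 in RykSL/SL lungs, against 701 and 663 in wild-type lungs (0.69, adjusted p = 0.0632). Kdelr3, a receptor that returns ER proteins from the Golgi, had a log2 fold change of -0.71 (adjusted p = 0.125), the signal peptidase subunit Sec11c -0.43 (adjusted p = 0.180) and the translocon-associated Tram1 -0.44 (adjusted p = 0.192).

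Markers of secretory and other cells moved beside these groups, and their part in the results was not tested. Of 9 measured plasma cell and B cell markers, 3 fell and none rose, beside 0.917% and 1.47% of all tested genes. These shares are the background for the other marker lists as well. Ms4a1 had 37 and 32 in RykSL/SL lungs, against 158 and 144 in wild-type lungs. Igkc had 44 and 33 in RykSL/SL lungs, against 134 and 140, and Ighm 162 and 111, against 353 and 375. The list median was -1.09, with 8 fitted values below 0 and 1 above. The summed list stood at 6565 and 5074 in RykSL/SL lungs, against 7789 and 7387 in wild-type lungs. Most of that sum was Sdc1, which epithelium also makes, so it understates the lower genes. The plasma cell genes Jchain and Tnfrsf17 were below the minimum. Other listed genes went different ways. Prdm1 had 251 and 186 in RykSL/SL lungs, against 489 and 433 in wild-type lungs. Mzb1 had 16 and 35, against 31 and 28, and Irf4 had 26 and 101, against 36 and 22. Of 11 alveolar type 2 markers, 1 fell, Cxcl15, with 12794 and 13009 in RykSL/SL lungs, against 34355 and 30055 in wild-type lungs. The sums of this list were 311957 and 271161 in RykSL/SL lungs, against 389834 and 356691 in wild-type lungs. Sftpc was the largest part, with 179120 and 135559 in RykSL/SL lungs, against 220945 and 200581. The markers differed, with fitted values from -1.38 to 0.70, 2 above and 9 below 0. Of 6 measured goblet and mucous cell markers 1 rose, the mucin gene Muc5b, with 247 and 567 in RykSL/SL lungs, against 50 and 47 in wild-type lungs. The sums of this list were 422 and 754 in RykSL/SL lungs, against 222 and 214 in wild-type lungs, and without Muc5b they were 175 and 187 in RykSL/SL lungs, against 172 and 167 in wild-type lungs. The mucin gene Muc5ac had a log2 fold change of -0.85 (adjusted p = 0.298). Ern2, the IRE1 gene of mucous cells, was below the minimum. None of 11 markers of other tissues, 6 of blood or 9 of RNA quality passed (limma, with 4, 1 and 1 at an unadjusted p under 0.05). Of the 4 from other tissues, Ckm had 74 and 64 in RykSL/SL lungs, against 138 and 180 in wild-type lungs. Myh6 had 862 and 632, against 1290 and 1580. The other 2 were higher, Apoa1 at 21 and 29, against 6 and 10, and Alb at 51 and 26, against 16 and 11. A test between genotypes does not judge a single lung. Krt13 had 5 and 55 in RykSL/SL lungs, against 9 and 10 in wild-type lungs. Whether the dissected tissue differed was not tested. The RNA quality list summed to 641356 and 854729 in RykSL/SL lungs, against 654581 and 654841 in wild-type lungs. RykSL/SL lung 2 was above lung 1 in 7 of these 9 genes. Whether this bears on Trib3, Ddit3, Dnajb9 and Atf4, high in the same lung, was not tested. No gene of these 6 lists was at 0 in all lungs.

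**Figure D2:**
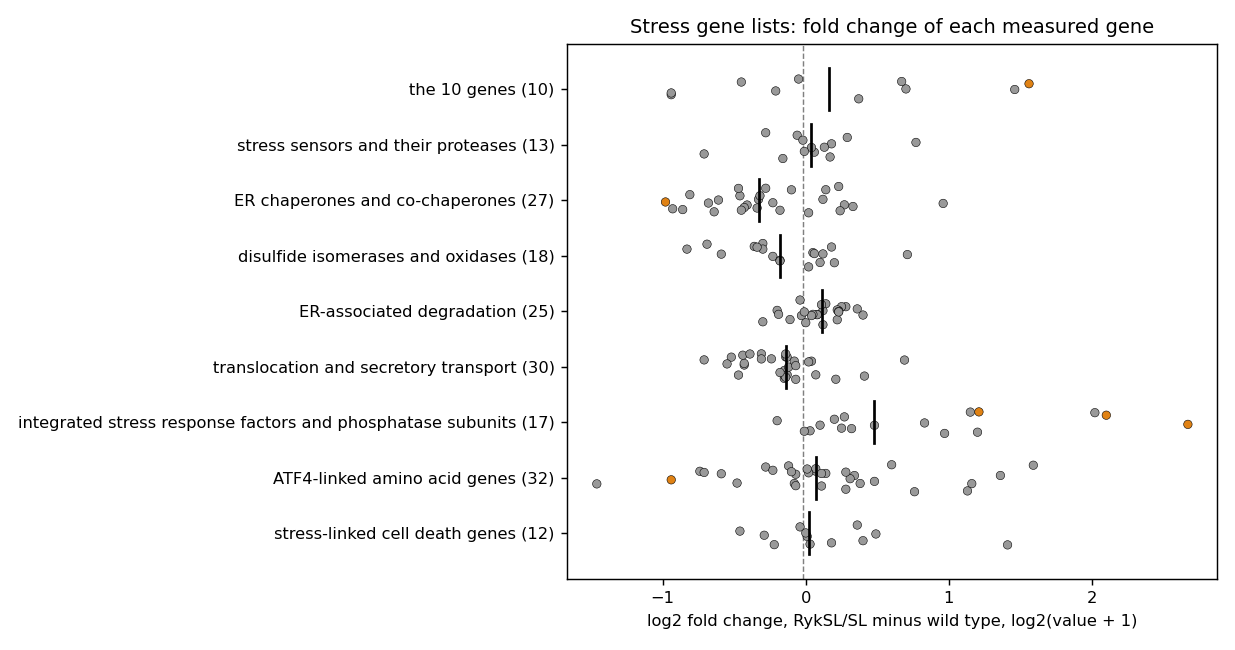
Log2 fold change (horizontal axis, the RykSL/SL mean minus that of wild type, in log2(value + 1)) of every measured gene of the 10 described and of 8 wider stress lists, with the number measured in brackets; orange points passed the test, black bars are list medians and the dashed line is the median of all tested genes. The chaperone list has a median of -0.33 and the list of integrated stress response factors one of 0.48, beside -0.02 for all genes.

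Among the transcription factors, Xbp1 (chr11:5520659-5525893, plus strand) had 2730 and 2980 normalized read counts in RykSL/SL lungs, against 3613 and 2998 in wild-type lungs. The RykSL/SL values lay just below the wild-type values, and the log2 fold change of -0.21 (95% interval -0.59 to 0.18) did not pass (limma, adjusted p = 0.510). A gene total holds the spliced and unspliced forms together, so IRE1 activity was not measured. Atf4 (chr15:80255184-80257540, plus strand), the effector of the PERK branch that is controlled mainly at translation, had 2724 and 4485 counts in RykSL/SL lungs, against 2730 and 2667 in wild-type lungs. RykSL/SL lung 1 lay between the wild-type lungs and lung 2 was above all others. The log2 fold change was 0.37 (standard error 0.245, adjusted p = 0.443), 0.73 without lung 1 and 0.01 without lung 2.

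Ddit3 (CHOP, chr10:127290774-127296288, plus strand), a C/EBP-family factor tied to cell death under lasting ER stress, had 167 and 458 normalized read counts in RykSL/SL lungs, against 175 and 166 in wild-type lungs. Only lung 2 stood apart. The log2 fold change was 0.70 (standard error 0.448, limma adjusted p = 0.434); it was 1.42 without lung 1 (adjusted p = 0.0407) and -0.03 without lung 2. Another annotated gene of the same name covers 105 bases of its exons on the same strand, and 4.38% of its 50-base sequences also occur in transcripts of that gene or of Mars.

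Trib3 (chr2:152337422-152344032, minus strand), a pseudokinase induced by ATF4 and CHOP that feeds back on both, had 128 and 635 normalized read counts in RykSL/SL lungs, against 86 and 124 in wild-type lungs. RykSL/SL lung 1 exceeded wild-type lung 2 by 4 counts, while lung 2 was 4.96 times as high as lung 1. The means were 381.5 ± 358.5 and 105 ± 26.9 (SD, n = 2 each), and the log2 fold change of 1.46 had a standard error of 0.700 and a 95% interval of -0.25 to 3.17 (adjusted p = 0.308). It was 2.61 without lung 1 (adjusted p = 0.0441) and 0.31 without lung 2. The gap between the RykSL/SL lungs exceeded that of 99.5% of tested genes for Trib3, 97.2% for Ddit3, 92.5% for Dnajb9 and 83.4% for Atf4. That share was 69.9% for Pdia4, 33.4% for Creld2, 31.7% for Sdf2l1, 21.6% for Xbp1 and 16.0% for Hspa5.

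**Figure D3:**
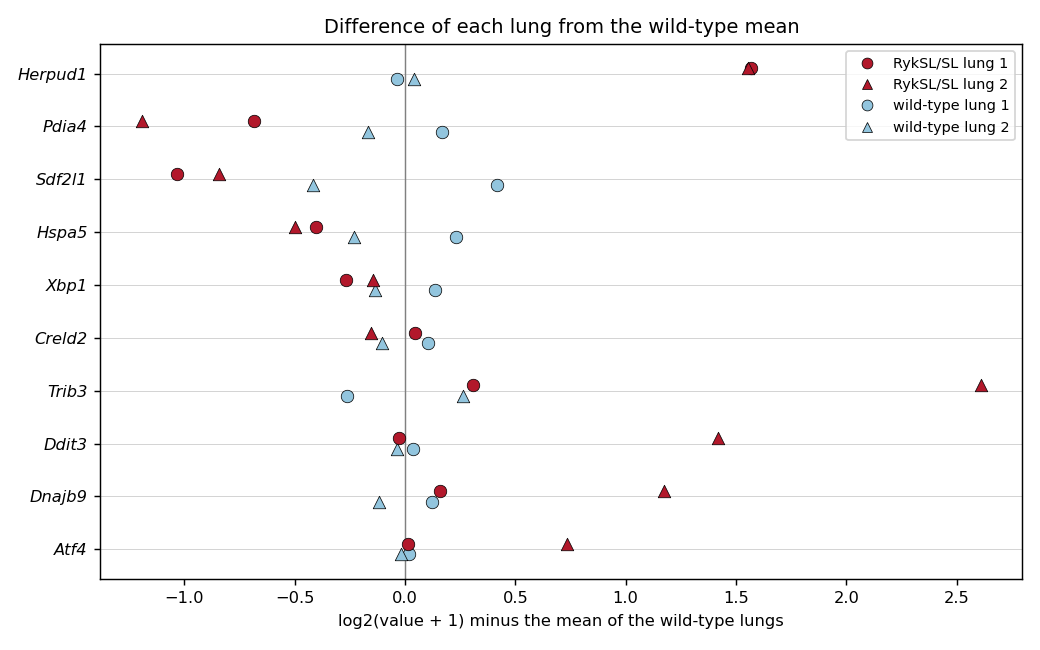
Log2(value + 1) of each lung minus the mean of the wild-type lungs (horizontal axis) for the 10 genes, with RykSL/SL lungs in red, wild-type lungs in light blue, circles for lung 1 and triangles for lung 2. RykSL/SL lung 2 stands at 2.61 for Trib3, 1.42 for Ddit3, 1.17 for Dnajb9 and 0.73 for Atf4, where lung 1 stands at 0.31, -0.03, 0.16 and 0.01; for Herpud1 the lungs stand at 1.55 and 1.57.

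The sensors themselves did not pass. Of 13 measured genes for sensors, their proteases and related kinases, none was called (limma; 1 higher and 1 lower at an unadjusted p under 0.05). Ern1, the gene of IRE1, had 889 and 1620 normalized read counts in RykSL/SL lungs, against 658 and 748 in wild-type lungs (log2 fold change 0.77, adjusted p = 0.216). Atf6 had 1920 and 1617 in RykSL/SL lungs, against 1485 and 1404 in wild-type lungs (0.29, adjusted p = 0.342). Creb3l1, an ER-bound factor of collagen-secreting cells, had a log2 fold change of -0.71 (adjusted p = 0.231), and the double-stranded RNA kinase gene Eif2ak2 one of -0.28 (adjusted p = 0.398).

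Of 17 measured factors and feedback genes listed as downstream of eIF2alpha, 3 rose and none fell, beside 1.47% and 0.917% of all tested genes. The list median was 0.48. Like the other lists, this one was chosen with earlier results of these data known, so its count is only a description. Phosphorylation of eIF2alpha was not measured. The genes that rose were high in both RykSL/SL lungs. Ddit4, an inhibitor of mTORC1 that other stresses and glucocorticoids are also known to induce, had 2296 and 2255 normalized read counts in RykSL/SL lungs, against 320 and 399 in wild-type lungs (log2 fold change 2.67, limma adjusted p = 0.00439). Stc2, a secreted glycoprotein gene, had 83 and 116 in RykSL/SL lungs, against 18 and 27 in wild-type lungs (2.10, adjusted p = 0.0367). Sesn2, another restraint on mTORC1, had 457 and 576 in RykSL/SL lungs, against 195 and 250 in wild-type lungs (1.21, adjusted p = 0.0455). Ppp1r15a (GADD34), which brings the phosphatase to eIF2alpha, had 1566 and 2114 in RykSL/SL lungs, against 933 and 921 in wild-type lungs and just missed the threshold (0.97, adjusted p = 0.0576). Stc2 (adjusted p = 0.0512) and Sesn2 (0.0521) did not pass without RykSL/SL lung 1, and Ddit4, Stc2 and Sesn2 did not pass without lung 2 (0.0966, 0.120 and 0.124) or without a wild-type lung (0.711 to 0.920). Sesn2 also missed the threshold with equal library totals (1.13, adjusted p = 0.0563).

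Some other genes of the same list were highest in RykSL/SL lung 2, as Trib3 was, and these were named after their values were seen. The stress factor gene Atf3 had 357 and 1409 normalized read counts in RykSL/SL lungs, against 193 and 157 in wild-type lungs. Nupr1, a chromatin-associated stress protein gene, had 1658 and 5972 in RykSL/SL lungs, against 1381 and 1365 in wild-type lungs. Chac1, a glutathione-degrading enzyme and ATF4 target, had 21 and 183 in RykSL/SL lungs, against 24 and 32 in wild-type lungs. None of these passed (limma, adjusted p = 0.149 for Atf3, 0.288 for Nupr1 and 0.535 for Chac1). The list median relative to the wild-type mean was 0.30 in lung 1 and 1.19 in lung 2.

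The amino acid genes known as ATF4 targets went both ways. Of 32 measured, 1 fell and none rose, the median was 0.07, and at an unadjusted p under 0.05 the counts were 4 higher and 5 lower (limma). The gene that fell was Psat1, an enzyme of serine synthesis, with 966 and 808 normalized read counts in RykSL/SL lungs, against 1709 and 1676 in wild-type lungs (log2 fold change -0.94, adjusted p = 0.0392). Phgdh, the first enzyme of that route, had 117 and 113 in RykSL/SL lungs, against 201 and 184 in wild-type lungs (-0.74, adjusted p = 0.111). The transporter gene Slc7a5 had 949 and 625 in RykSL/SL lungs, against 261 and 342 in wild-type lungs (1.36, adjusted p = 0.0562). Cth, which makes cysteine from cystathionine, had 182 and 470 in RykSL/SL lungs, against 97 and 96 in wild-type lungs (1.59, adjusted p = 0.129). Asns, the asparagine synthetase gene often used as a readout of ATF4, was named after its values were seen and had 176 and 449 in RykSL/SL lungs, against 190 and 213 in wild-type lungs (0.48, adjusted p = 0.568). The call of Psat1 was lost without RykSL/SL lung 2 (adjusted p = 0.0966) and without wild-type lung 1 or 2 (0.920 and 0.768).

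No gene of the cell death list passed among 12 measured (limma; 2 higher and 0 lower at an unadjusted p under 0.05). Pmaip1 (NOXA), a BH3-only activator of apoptosis, had 155 and 93 normalized read counts in RykSL/SL lungs, against 54 and 37 in wild-type lungs (log2 fold change 1.41, adjusted p = 0.103). Bcl2l11 (BIM) had a log2 fold change of 0.40 (adjusted p = 0.238), the kinase gene Map3k5 one of 0.36 (adjusted p = 0.313) and the pore-forming Bak1 one of -0.46 (adjusted p = 0.356).

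Levels were compared between the 10 genes as normalized read count per kilobase of exonic length (GENCODE M21). In the RykSL/SL lungs Herpud1 led with 1946 and 1929 per kilobase, and Atf4 in lung 2 came close to it at 1902. Mean levels of 1529 for Atf4 and 1502 for Hspa5 followed, and their ranges overlapped. In the wild-type lungs the order was headed by Hspa5 at 2404 and 1749 per kilobase, then Atf4 at 1158 and 1131, Xbp1 at 1112 and 923, Pdia4 at 856 and 680.3 and Herpud1 at 639.5 and 675. The ranges of these 5 genes did not overlap, and Herpud1 was the fifth. Creld2 and Dnajb9, at wild-type means of 388 and 335 per kilobase, overlapped in that genotype, as did Sdf2l1 at 122 and Ddit3 at 99.5. Trib3 was lowest in wild-type lungs at 40.5 and 58.4 per kilobase. In RykSL/SL lungs Sdf2l1 was lowest at 56.9 and 65.0, next to Trib3 at 60.2 and 299.

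The genes most like Herpud1, by the root-mean-square difference of centred log2 values over the 4 libraries among 12415 genes with a mean of at least 50, were Aldh1l1 (0.0352), Jade2 (0.0497), Ppl (0.0567) and Fsd2 (0.0643). Aldh1l1, a folate enzyme gene, had 256 and 268 normalized read counts in RykSL/SL lungs, against 89 and 91 in wild-type lungs. Ppl, the gene of the desmosomal protein periplakin, had 3246 and 3288 in RykSL/SL lungs, against 1107 and 1250 in wild-type lungs. Jade2 and Fsd2 had log2 fold changes of 1.55 and 1.51. None of the 4 is a gene of the stress lists.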

How the data were processed

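RNA from the left lung lobe of 4 mice at postnatal day 1 was made into stranded poly(A) libraries, per the labels' protocols. Groups and replicate numbers come from the titles. Per the submitters' processing notes, FastQC, STAR 2.4.0a, featureCounts 1.5.1 (Subread), DESeq2 1.14.1 and the builds mm10 and GRCm38 were used; of the strand setting and of multi-mapped reads the sources used here say nothing. The authors deposited 1 table of normalized counts rounded to whole numbers, treated here as a score. Library totals are near equal, and 3 of the whole values from 1 to 20 are absent in RykSL/SL lung 2, as rounding of scaled counts leaves, so no count model was run. Low values carry more counting error: a value under 10 rests on few reads.

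limma 3.58.1 (R 4.3.3) with a mean-variance trend was run, two-sided, on log2(value + 1) of genes whose 4 libraries averaged 10 or more; the prior had 4.07 degrees of freedom. With 2 lungs per genotype, p-values rest on the spread between these mice and on variance borrowed from other genes through that prior. This log scale understates changes of low genes. Named were the 10 genes, Ryk, up to 4 genes with the smallest p of each of 8 stress lists, and 4 genes by likeness. Genes named from the marker lists, and Xist and Ddx3y, were picked outside this rule. Others are marked where they are named. The members and lists were chosen with earlier results of these data known. The steps were tested on simulated data with the same negative binomial dispersion for all genes and lungs. The wider spread between the RykSL/SL lungs was not part of that simulation. Start regions come from RefSeq (GRCm38.p6), exons, overlaps of at least 100 bases and shared 50-base sequences from GENCODE M21. Alternatives covered pseudocount, filter, scaling, trend, each lung left out and a replicate block. Other steps used Python 3.11.15 with matplotlib 3.10.9, scipy 1.17.1, numpy 2.4.6 and pandas 2.3.3.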

Additional observations from a re-analysis of the deposited data

How the results depend on the processing

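The main counts over all genes, 271 higher and 169 lower in RykSL/SL, depended on the choices. They were 0 and 0 with no filter on low values (4876 genes at an unadjusted p under 0.05) and 46 and 26 without the mean-variance trend. With 1 lung left out they ranged from 0 to 1199 higher and from 0 to 1186 lower; the high ends came without RykSL/SL lung 1 and the zeros without any other lung (5249, 917 and 1133 genes at an unadjusted p under 0.05 without RykSL/SL lung 2, wild-type lung 1 and wild-type lung 2). In these fits the lone lung is assumed to vary like the other genotype. Of the 10 genes, the count called higher was 0 with no filter and 0 without the trend, and 0 to 5 with 1 lung left out. The cause was not tested.

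Lungs of different genotype share only a number: the correlation over genes of deviations from the group mean between lungs numbered 1 was -0.058, with 2 pairs. A replicate block gave 437 genes higher and 329 lower, and of the 10 genes Herpud1 was called higher (adjusted p = 0.00294) and 1, Pdia4, lower (adjusted p = 0.0267). Pseudocounts of 0.5 and 10, a minimum mean of 50, quantile normalization and equal library totals left Herpud1 as the gene called, with adjusted p from 0.0100 to 0.0131. The median of the 10 genes ran from -0.01 without RykSL/SL lung 2 to 0.29 without lung 1. Without the trend, Psat1, Sesn2, Stc2 and Uggt2 also lost their calls (adjusted p = 0.0663 to 0.106), with no filter these and Ddit4 did (0.222 to 0.240), and with equal library totals Sesn2 did (0.0563). Depth limits Sdf2l1 and Trib3 more than the others, at 63 to 174 and 86 to 635 counts.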
